A study of Mus musculus with 6 samples.

Results

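Imprinted genes, which are read mainly or only from the allele inherited from 1 parent, were followed through the neural differentiation of mouse embryonic stem cells with a knockdown of Chd4 or Mbd3. A list of 40 such genes was used, and a gene entered where a probe set of the array carried its symbol and no other; of several, the one brightest on average stood for it. This held for 35 of the 40 genes, out of 22180 genes in the table. H19, Mirg, Rtl1, Snrpn and Zrsr1 were not analysed here, the first 4 because their probe sets carry further symbols. Such shared probe sets were also left out for Meg3, Rian, Peg3, Usp29 and Gnas, which have 1 of their own. Of the 35 genes, 19 are known as paternally and 16 as maternally expressed, at least in some tissue. The array does not tell the alleles apart, so every value below is a total over both.

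The stem cells (ESC) had been infected with lentivirus carrying a control shRNA, a Chd4 shRNA or a Mbd3 shRNA. Both targets belong to NuRD, a chromatin complex that remodels nucleosomes and removes acetyl groups from histones; Chd4 supplies the ATPase and Mbd3 holds the subunits together. Each line was taken at day 0, on gelatin in medium with serum and LIF, and at day 4 after aggregation in differentiation medium with knockout serum replacement, which gave 6 groups of 1 Mouse Gene 2.0 ST array each. The labels do not say how many hairpins, clones or cultures stand behind a line. Since each group is 1 array, a difference between 2 arrays comes without replicates and without a p-value, and precision is limited by this number. "Higher" and "lower" below therefore describe these arrays, and "past 2-fold" means a log2 difference of at least 1 in size.

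Imprints are DNA methylation marks that are set in the germ line at control regions and kept through early development. They decide which parental copy of a cluster of genes is active, often through a long noncoding RNA or an insulator. Many imprinted genes act on growth: paternally expressed genes such as Igf2 tend to promote it and maternally expressed genes such as Cdkn1c, Grb10 and Phlda2 to restrain it, and several are active in the developing brain. In stem cells the marks are guarded by the zinc-finger protein ZFP57, which binds the methylated hexamer TGCCGC and recruits TRIM28 and DNMT1.

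The promoters of 4 genes from the results below show how different these starts are in sequence. They are RefSeq windows of assembly GRCm38.p6, from 250 bases before to 50 after the transcript start, and capitals mark TGCCGC or its reverse complement GCGGCA. Grb10 lies at chr11:12037371-12037670 on the minus strand, Mest at chr6:30737800-30738099 on the plus strand, Ndn at chr7:62348027-62348326 on the plus strand, and Dlk1 at chr12:109452573-109452872 on the plus strand. Where a gene had several windows, the window richest in CG was taken.
Grb10: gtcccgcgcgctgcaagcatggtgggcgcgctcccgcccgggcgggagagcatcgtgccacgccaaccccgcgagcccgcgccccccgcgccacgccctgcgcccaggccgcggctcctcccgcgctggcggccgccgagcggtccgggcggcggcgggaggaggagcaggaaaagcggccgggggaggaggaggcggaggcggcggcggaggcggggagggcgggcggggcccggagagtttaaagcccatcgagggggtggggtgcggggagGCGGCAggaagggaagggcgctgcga
Mest: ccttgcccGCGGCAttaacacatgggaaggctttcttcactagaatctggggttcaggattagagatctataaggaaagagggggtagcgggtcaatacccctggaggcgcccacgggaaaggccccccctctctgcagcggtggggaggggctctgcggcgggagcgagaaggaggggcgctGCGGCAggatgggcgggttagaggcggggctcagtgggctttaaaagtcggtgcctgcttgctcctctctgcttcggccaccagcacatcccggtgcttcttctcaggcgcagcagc
Ndn: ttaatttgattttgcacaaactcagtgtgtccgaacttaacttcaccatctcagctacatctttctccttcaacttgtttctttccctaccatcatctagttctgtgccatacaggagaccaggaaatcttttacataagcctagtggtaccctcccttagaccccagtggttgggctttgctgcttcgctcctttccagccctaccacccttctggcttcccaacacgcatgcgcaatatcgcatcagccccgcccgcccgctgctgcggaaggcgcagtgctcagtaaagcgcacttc
Dlk1: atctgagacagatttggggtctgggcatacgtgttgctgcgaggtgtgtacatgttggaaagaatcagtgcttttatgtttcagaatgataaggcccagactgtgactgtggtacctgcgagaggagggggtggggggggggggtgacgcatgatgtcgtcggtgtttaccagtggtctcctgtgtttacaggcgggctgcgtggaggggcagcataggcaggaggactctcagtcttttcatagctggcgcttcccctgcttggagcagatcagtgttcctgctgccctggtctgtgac
The Grb10 window holds 45 CG dinucleotides and 1 match to the hexamer on either strand, and the Mest window 17 and 2. The Ndn and Dlk1 windows hold 11 and 9 CG dinucleotides and no match. All 4 genes were among those past 2-fold higher at day 4 in control cells. Over the 29 imprinted genes that the table of windows holds, 7 had a match (24.1%): Mest, Grb10, Copg2, Meg3, Nnat, Plagl1 and Zim1. Over all genes with a window this was 12.2%. The median CG count was 17 in the imprinted windows and 8 over all genes. Of the 6 genes past 2-fold higher in control that have a window, 2 had a match. A match is a run of letters, not a measured binding site.

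The array medians lay between 39.6 and 41.4, and the highest, 41.4, is used as a floor: where the dimmer of 2 intensities lay under it, the difference is a bound ("at least"). The targeted genes went with the labels, with Chd4 at 29.8% of control in its knockdown at day 0 and 71.3% at day 4, and Mbd3 at 43.0% and 75.5% in its own. Marker sums of other cell states differed between the lines at day 4. The summed intensity of 8 early neural markers went from 424 to 5115 in control, from 359 to 691 in the Chd4 knockdown and from 367 to 1023 in the Mbd3 knockdown. That of 8 pluripotency markers went from 12088 to 4477, from 11316 to 8116 and from 10971 to 7541. Sums over 7 measured fibroblast markers stayed between 295 and 422, over 7 mesoderm markers between 347 and 385, and over 8 extraembryonic endoderm markers between 451 and 633 on the 6 arrays. Those over 8 trophoblast markers ranged from 392 in control to 799 in the Mbd3 knockdown, at day 4 and day 0. Those over 8 neuronal markers read 2183, 2181 and 1318 in control, Chd4 and Mbd3 cells at day 0. At day 4 they read 3066, 1565 and 1332 in the same order, so the Mbd3 line was already lower at day 0. No marker is listed at 0, since every intensity was above 17. In such bulk RNA, a larger number of cells of a type and more RNA per cell cannot be told apart, and the part of these markers' cells in the values below was not tested.

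Imprinted genes were mostly higher after 4 days of differentiation in control cells. Of the 35 genes, 30 reached the array median on the brighter of the 2 arrays, and 8 of these were at least 2-fold higher at day 4 and 1 lower. Over all 13830 genes that entered in the same way, 8.13% were past 2-fold upward and 4.70% downward. In all, 25 of the 30 imprinted genes were higher by any size, against 50.2% of all genes, and their median log2 difference was 0.68 against 0.003. The 8 genes were Grb10, Asb4, Sgce, Cdkn1c, Ndn, Dlk1, Mest and Mkrn3, and the single lower gene was Phlda2. Mkrn3, at a log2 difference of 1.05, was the smallest counted, and Peg12, at 0.99, the largest not counted. With a constant of 16 subtracted from every intensity, which the processing may have added, 14 genes were past 2-fold higher and 1 lower. Of the paternally expressed genes 14 of 15 were higher, 5 of them past 2-fold, and of the maternally expressed genes 11 of 15, 3 of them past 2-fold.

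**Figure D1:**
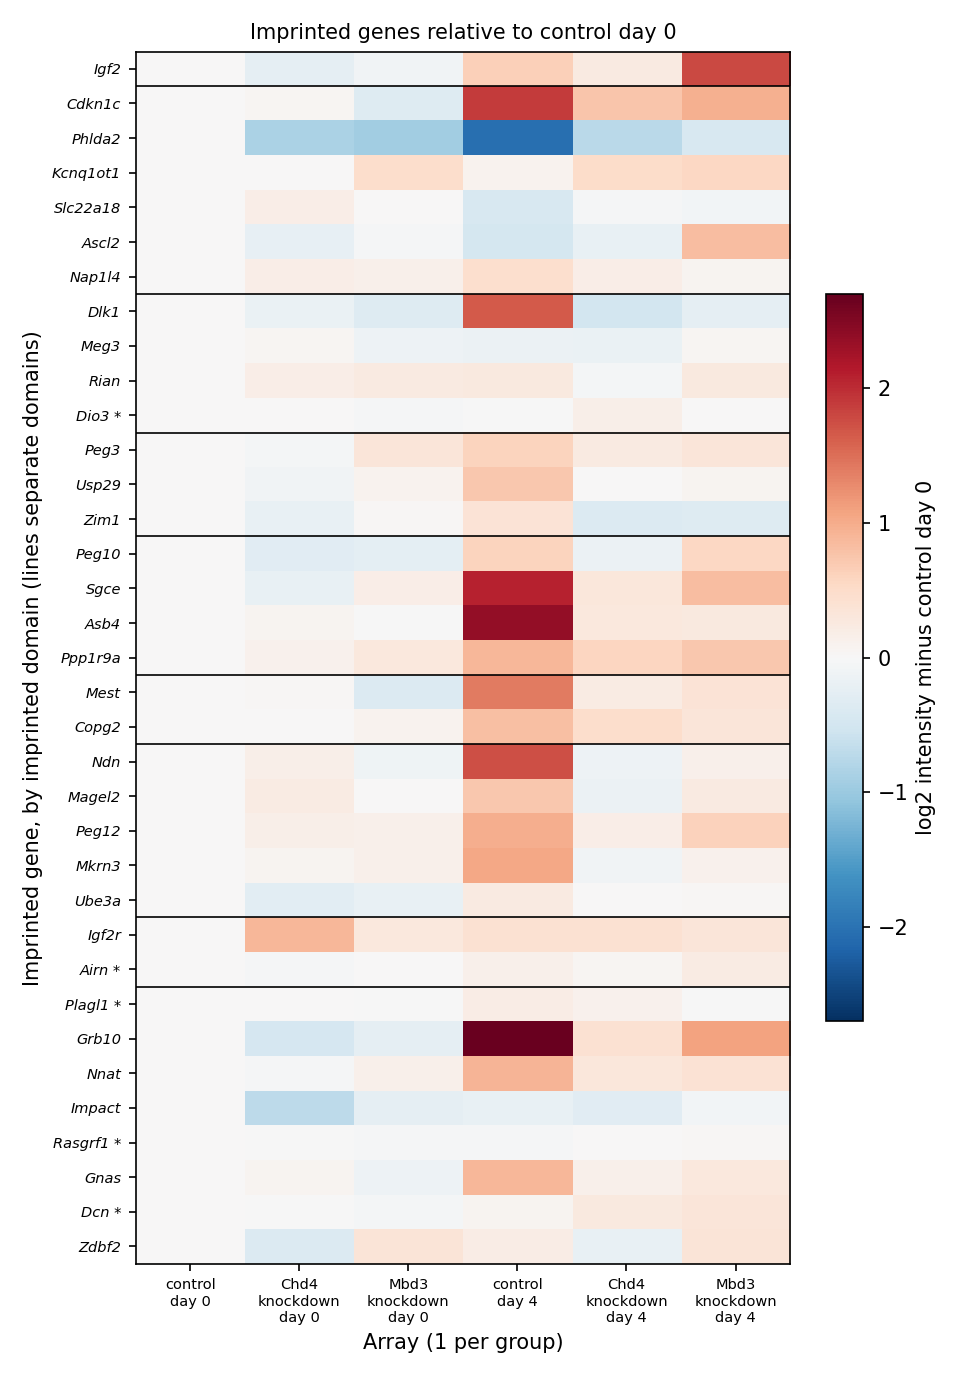
Heat map of the 35 imprinted genes (one line each, in blocks by imprinted domain) on the 6 arrays (columns, 1 per group), coloured by log2 intensity minus that of control day 0; an asterisk marks the 5 genes under the floor of 41.4 on all arrays. The column of control day 4 holds the strongest colours, from Grb10 (2.66) to Phlda2 (-2.03), and for the genes past 2-fold in control the day 4 columns of the knockdowns are paler. Igf2 and Ascl2 in the Mbd3 knockdown and Kcnq1ot1 in both are among the genes that are stronger there than in control at day 4.

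The knockdown lines showed less of this shift. In the Chd4 line 0 of 27 imprinted genes that entered were past 2-fold between the days in either direction, where 1.70% of 13407 genes were higher and 1.16% lower; by any size 18 of the 27 were higher, against 48.5% of all genes. In the Mbd3 line 3 of 28 were higher, Igf2, Grb10 and Cdkn1c, and 0 lower, where 1.60% of 13348 genes were higher and 1.11% lower; by any size 22 of the 28 were higher, against 45.7%. The 8 genes past 2-fold higher in control had a median day difference of 1.81 there, 0.21 in the Chd4 line and 0.47 in the Mbd3 line. They were chosen by their control difference, so their control median is high by that choice. A smaller median in another line is therefore no separate support for a lesser shift. Of the 8, 5 were higher at day 4 in the Chd4 line and 7 in the Mbd3 line. For all 1125 genes past 2-fold higher in control, the share higher at day 4 was 67.2% in the Chd4 line and 87.9% in the Mbd3 line. The median of these 1125 genes, chosen in the same way, was 1.45 in control, 0.16 in the Chd4 line and 0.39 in the Mbd3 line. The 8 imprinted genes stood at 1.81, 0.21 and 0.47 in the same order.

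**Figure D2:**
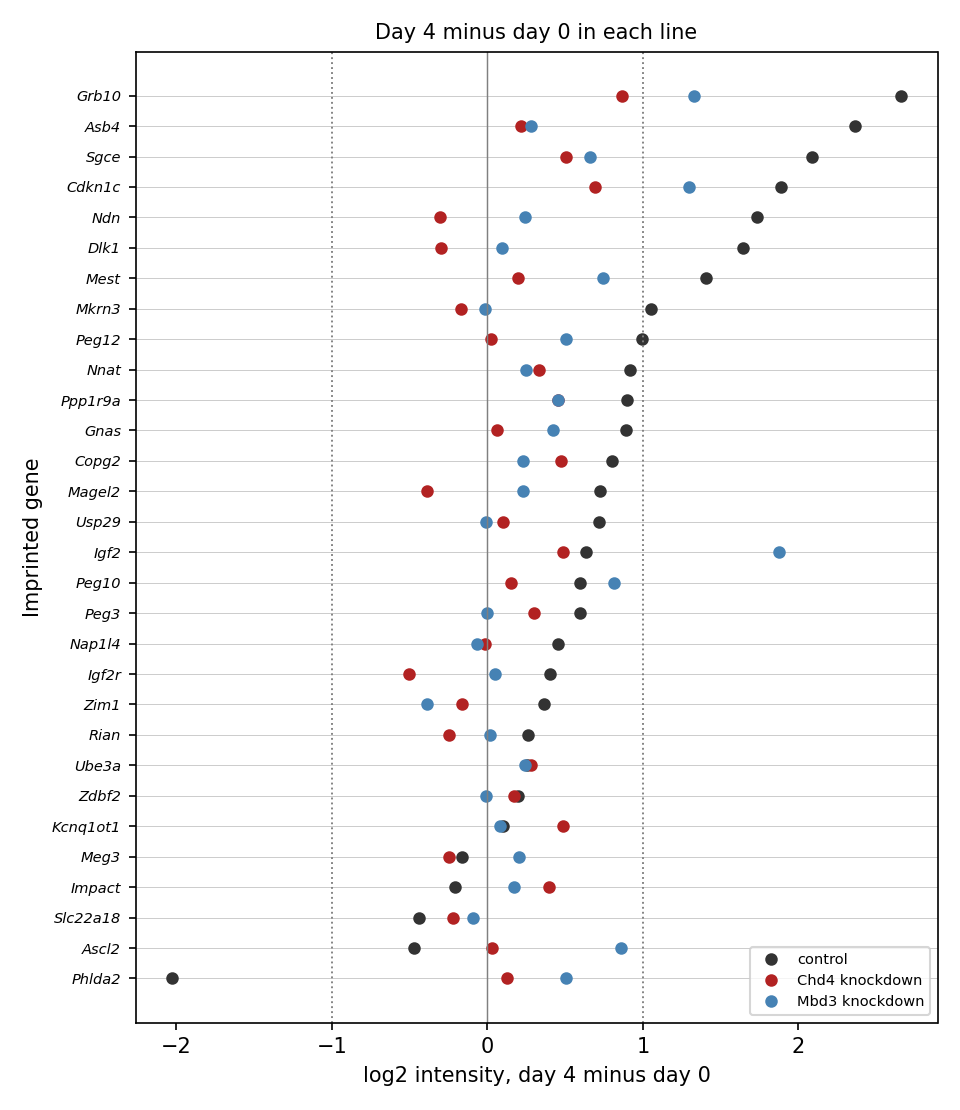
Log2 intensity at day 4 minus day 0 in control (black), Chd4-knockdown (red) and Mbd3-knockdown (blue) cells for the 30 imprinted genes that reach 41.4 on at least 1 array, ordered by the control value; each point is a difference of 2 arrays, and dotted lines mark 2-fold. The black points run from -2.03 (Phlda2) to 2.66 (Grb10), and no red point lies past a dotted line.

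At day 4 the knockdown arrays were set against control. For Chd4, 29 imprinted genes entered, of which 8 were at least 2-fold lower (6.65% of 13734 genes) and 1 higher (5.07%), with a median log2 difference of -0.62 against -0.04 over all genes. By any size 4 of the 29 were higher, against 46.1%. The median was -0.40 with dim values set to the floor and -0.36 with the 35 genes unfiltered. For Mbd3, 30 entered, of which 6 were at least 2-fold lower (4.90% of 13588 genes) and 3 higher (3.44%), with a median of -0.37 against -0.06. By any size 8 of the 30 were higher, against 44.1%. Without the filter the median was -0.22, and with 16 subtracted 10 genes in place of 6 were past 2-fold lower. These comparisons use the control day 4 array, as the day difference in control does, so that their values are not independent of it or of each other. Dlk1, Grb10, Asb4, Ndn, Sgce and Mest were past 2-fold lower in each knockdown, and Mkrn3 and Cdkn1c past it in the Chd4 knockdown, with log2 differences of -0.94 each in the Mbd3 knockdown. Phlda2 was past 2-fold higher in each, and Igf2 and Ascl2 in the Mbd3 knockdown.

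In stem cells at day 0, 0 of 28 imprinted genes were past 2-fold in either knockdown. The background was low as well: for Chd4, 0.692% of genes were past 2-fold upward and 0.565% downward, and for Mbd3 0.366% and 0.314%, so a count of 0 among 28 is near it. By any size 15 of the 28 were higher in each knockdown, against 48.7% and 49.7% of all genes. The median log2 differences were 0.004 for Chd4 and 0.01 for Mbd3. The widest differences were those of Phlda2, at -0.86 and -0.94, of Igf2r, at 0.91 and 0.28, and of Impact, at -0.70 and -0.24, in the Chd4 and Mbd3 knockdowns. Impact, which codes for a regulator of translation, stood at 983, 605 and 832 in control, Chd4 and Mbd3 cells at day 0, and at 850.0, 797 and 937 at day 4.

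**Figure D3:**
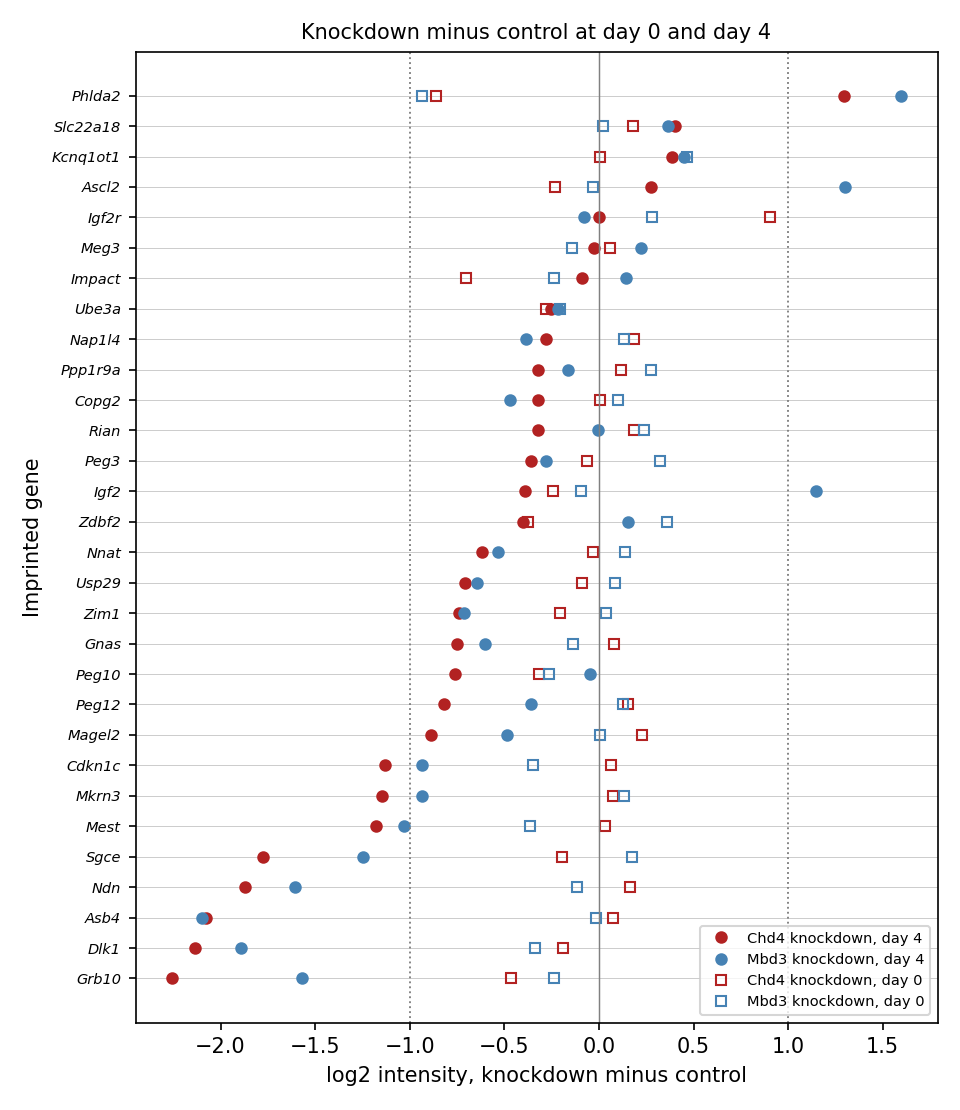
Log2 intensity in a knockdown minus control for the 30 imprinted genes that reach 41.4 on at least 1 array, at day 0 (open squares) and day 4 (filled circles), with Chd4 in red and Mbd3 in blue; each point is a difference of 2 arrays, points of a day share the control array, and dotted lines mark 2-fold. All squares lie within the dotted lines, while the circles spread from -2.26 (Grb10, Chd4) to 1.60 (Phlda2, Mbd3).

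Among genes of growth signaling, Grb10 showed the widest difference. It encodes an adaptor that binds the insulin and IGF1 receptors and dampens their signal. Its intensity was 259.8, 188 and 221 in control, Chd4 and Mbd3 cells at day 0, and 1642, 344 and 554 in the same order at day 4. All 3 lines were thus higher at day 4, by 6.32-fold in control, 1.83-fold in the Chd4 line and 2.51-fold in the Mbd3 line. At day 4 the Chd4 knockdown stood 4.78-fold and the Mbd3 knockdown 2.96-fold below control.

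Igf2, the insulin-like growth factor of the fetus, followed another order. It read 174, 147 and 162 in control, Chd4 and Mbd3 cells at day 0, and 269, 206 and 596 at day 4. The Mbd3 array at day 4 was the highest, 3.67-fold above day 0 of its own line, 2.21-fold above control and 2.90-fold above the Chd4 knockdown of the same day. Between the knockdowns at day 4, Igf2 and Ascl2 were the 2 of 27 imprinted genes past 2-fold, both higher for Mbd3, where 0.180% of 13329 genes were past 2-fold upward and 0.923% downward. By any size 23 of the 27 were higher for Mbd3, against 48.9% of all genes. At day 0, 0 of 28 were past 2-fold, where 0.466% of 13315 genes were so upward and 0.586% downward, and 16 of the 28 were higher by any size, against 50.3%. This comparison of the knockdowns was added after seeing the data. Igf2r codes for the receptor that takes IGF2 to the lysosome. It stood at 281, 526 and 340.4 in control, Chd4 and Mbd3 cells at day 0 and at 371, 371 and 351 at day 4, so that the Chd4 array at day 0 was the highest, 1.87-fold above control, and the lines lay close together at day 4. Airn, the noncoding RNA that silences the paternal Igf2r, was under the floor on all arrays (32.6 to 38.4).

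Dlk1 encodes a transmembrane protein with EGF repeats that holds progenitors in an undifferentiated state. It read 64.3, 56.4 and 50.9 in control, Chd4 and Mbd3 cells at day 0 and 201, 45.8 and 54.2 at day 4. Only the control array at day 4 stood out, 3.13-fold above day 0, with the Chd4 and Mbd3 knockdowns 4.40-fold and 3.71-fold below it. The maternally expressed noncoding genes of the same cluster did not follow Dlk1: Rian, which hosts small nucleolar RNAs, read 574, 652 and 678 in control, Chd4 and Mbd3 cells at day 0 and 688, 549.9 and 686 at day 4. Meg3, which lay around the floor, read 42.0, 43.8 and 38.1 in control, Chd4 and Mbd3 cells at day 0 and 37.5, 36.9 and 43.9 at day 4. Neither had a difference past 2-fold, and no array stood out. Each is read here from 1 probe set. Meg3 has 2 further probe sets and Rian 1 that also carry other symbols, and these were not analysed. Dio3, which inactivates thyroid hormone at the other end of the cluster, was under the floor on all arrays, with 27.5, 27.8 and 26.8 in control, Chd4 and Mbd3 cells at day 0 and 27.4, 30.7 and 27.5 at day 4.

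Cdkn1c and Phlda2 lie in the same cluster, under the control of Kcnq1ot1. They went opposite ways between the days in control and between knockdown and control at day 4, while in each knockdown line both were higher at day 4 than at day 0. Cdkn1c codes for the cyclin-dependent kinase inhibitor p57, which lets progenitors leave the cell cycle. Its intensity was 76.3, 79.6 and 60.0 in control, Chd4 and Mbd3 cells at day 0 and 282, 129 and 148 at day 4. It was higher at day 4 in each line, by 3.70-fold, 1.62-fold and 2.46-fold. At day 4 it stood 2.19-fold below control with the Chd4 shRNA and 1.91-fold below with the Mbd3 shRNA.

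Phlda2 encodes a small pleckstrin-homology protein that limits placental growth. It read 338, 186 and 176 in control, Chd4 and Mbd3 cells at day 0, and 82.8, 203 and 250.4 at day 4. Control was the highest array at day 0 and the lowest at day 4, a 4.08-fold difference, while the knockdown lines differed by 1.09-fold and 1.42-fold in the other direction. At day 4 the knockdowns were 2.45-fold and 3.02-fold above control. Ascl2, a bHLH factor of the trophoblast, stood at 82.6, 70.4 and 80.7 at day 0 and at 59.4, 71.9 and 146 at day 4. The Mbd3 array at day 4 was the highest, 2.46-fold above control. In the trophoblast list 4 of 5 markers that entered were higher than control there, beside 44.1% of all genes. Of these markers 1 was past 2-fold, beside 3.44%. Their median log2 difference was 0.65, and the sum over the list was 586 against 392. The defining genes Cdx2 and Elf5 lay at 38.9 and 30.9, under the floor. The sum in the Mbd3 line was 799 at day 0. In the Chd4 knockdown at day 4, 5 of 5 trophoblast markers were higher than control, beside 46.1% of all genes. Their median was 0.36 and 0 were past 2-fold, beside 5.07%. The part of these markers' cells in the value of Ascl2 was not tested. Kcnq1ot1, the noncoding RNA that silences this cluster on the paternal copy, read 73.3, 73.4 and 101 in control, Chd4 and Mbd3 cells at day 0 and 78.6, 103 and 107 at day 4. The transporter gene Slc22a18 read 56.5, 64.0 and 57.2 in control, Chd4 and Mbd3 cells at day 0 and 41.6, 54.9 and 53.6 at day 4. None of the differences of these genes, or of the histone chaperone gene Nap1l4, was past 2-fold. Nap1l4 read 701, 797 and 769.6 in control, Chd4 and Mbd3 cells at day 0 and 959.6, 789.7 and 734 at day 4.

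**Figure D4:**
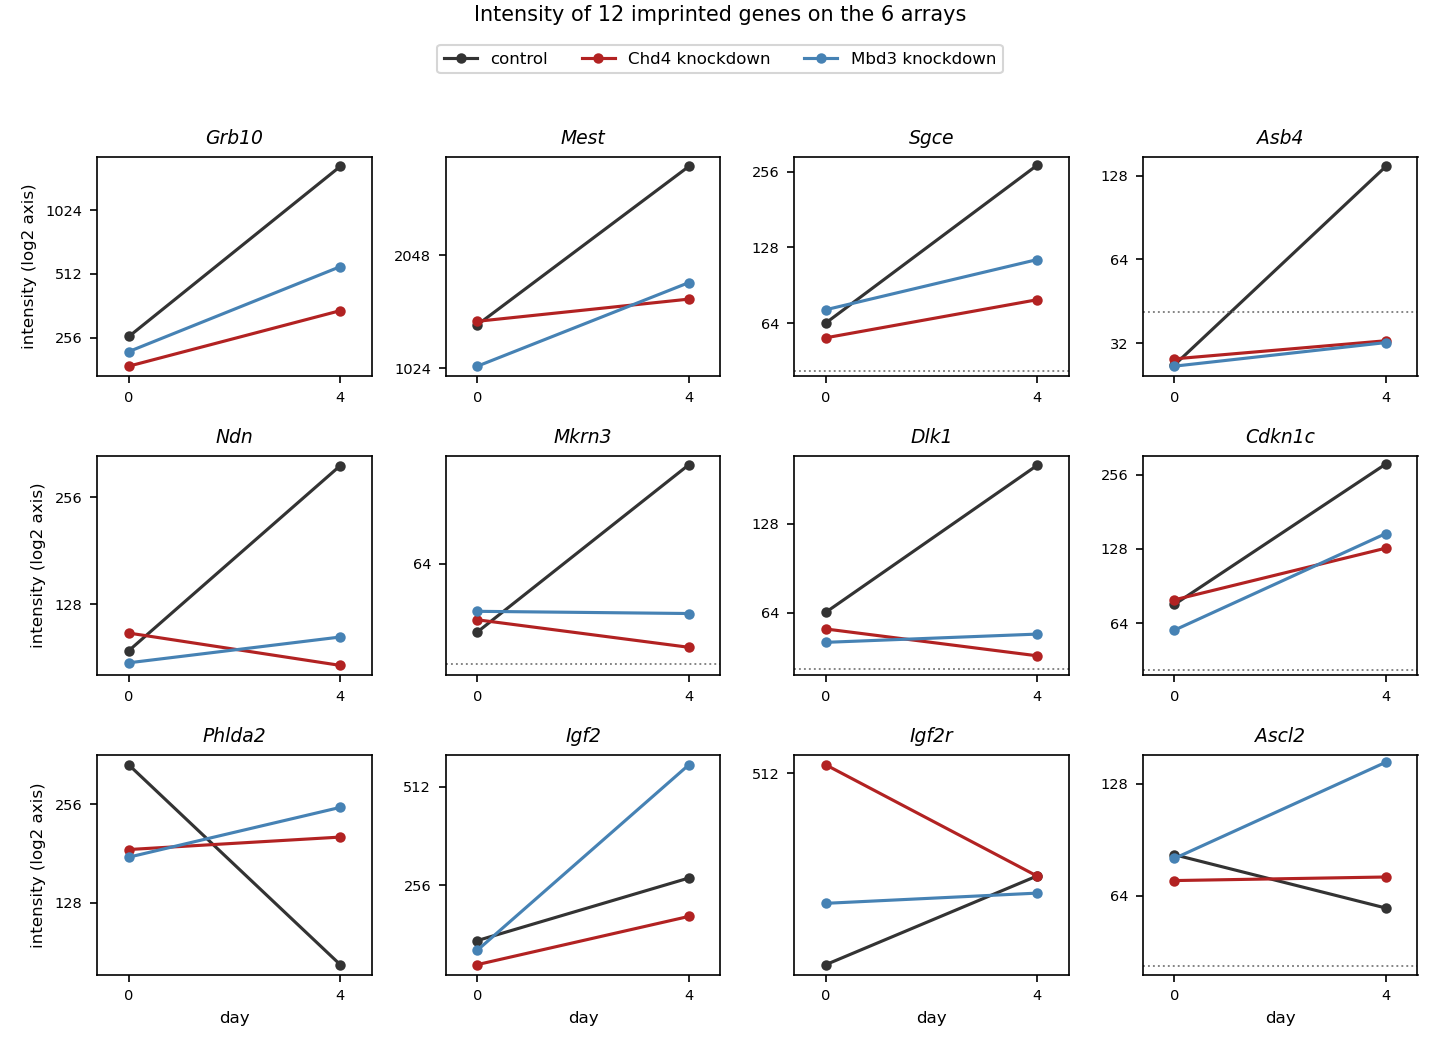
Intensity (log2 axis, own range in each panel) at day 0 and day 4 of 12 imprinted genes in control (black), Chd4-knockdown (red) and Mbd3-knockdown (blue) cells; each point is 1 array and a dotted line, where it falls in range, is the floor of 41.4. Control lies well above the knockdowns at day 4 for the first 8 genes and below them for Phlda2. Igf2 and Ascl2 are highest in the Mbd3 knockdown at day 4, and Igf2r in the Chd4 knockdown at day 0.

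The Peg10 cluster held 2 of the strongest differences. Sgce, which encodes epsilon-sarcoglycan and shares its promoter region with Peg10, read 64.1, 55.9 and 72.3 in control, Chd4 and Mbd3 cells at day 0 and 272, 79.3 and 114 at day 4. The control array at day 4 was 4.24-fold above day 0, and the knockdowns lay 3.43-fold and 2.37-fold below it. Asb4, an adaptor of a ubiquitin ligase, was under the floor on 5 arrays, between 26.5 and 32.7, and at 138 on the control array at day 4, at least 3.33-fold above each of the others. Peg10, a gene derived from a retrotransposon and needed in the placenta, went from 662 to 1001 in control, from 532 to 591 in the Chd4 line and from 551 to 969 in the Mbd3 line. Here the Mbd3 knockdown was close to control at day 4, with a log2 difference of -0.05, and the Chd4 knockdown lower, at -0.76. Ppp1r9a, which encodes the synaptic protein neurabin, read 106, 115 and 128 in control, Chd4 and Mbd3 cells at day 0 and 197, 158 and 176 at day 4. It was higher at day 4 in all 3 lines, by 1.86-fold, 1.37-fold and 1.37-fold.

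Mest codes for an enzyme of the alpha/beta-hydrolase fold and is a marker of growing mesodermal and neural tissue. It read 1336, 1366 and 1036 in control, Chd4 and Mbd3 cells at day 0 and 3537, 1565 and 1732 at day 4. All lines were higher at day 4, by 2.65-fold, 1.15-fold and 1.67-fold, and at day 4 the knockdowns lay 2.26-fold and 2.04-fold below control. Copg2, which encodes a coat protein of Golgi vesicles and overlaps Mest in the opposite direction, read 529, 531 and 569 in control, Chd4 and Mbd3 cells at day 0 and 923, 738 and 666 at day 4. It was higher at day 4 in the 3 lines by 1.74-fold, 1.39-fold and 1.17-fold.

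The Prader-Willi region, whose paternally expressed genes act in postmitotic neurons, moved in the same direction in control. Ndn, which encodes the MAGE protein necdin, a growth suppressor of neurons, read 94.7, 106 and 87.5 in control, Chd4 and Mbd3 cells at day 0 and 315, 86.0 and 103 at day 4. The control array at day 4 was the single high value, 3.32-fold above day 0 and 3.66-fold and 3.04-fold above the Chd4 and Mbd3 knockdowns. Mkrn3, a ubiquitin ligase gene tied to the timing of puberty, read 47.6, 50.2 and 52.1 at day 0 and 98.7, 44.5 and 51.6 at day 4, again with 1 high array. The MAGE gene Magel2 and Peg12 differed less: Magel2 was 1.65-fold and Peg12 1.99-fold higher at day 4 in control. Magel2 read 43.8, 51.1 and 43.9 in control, Chd4 and Mbd3 cells at day 0 and 72.2, 39.0 and 51.6 at day 4. Peg12 read 53.5, 59.5 and 58.5 in control, Chd4 and Mbd3 cells at day 0 and 106, 60.4 and 82.9 at day 4. Control at day 4 was the highest array for each. Ube3a, the ligase gene that is maternally expressed in neurons, read 345, 284 and 299 in control, Chd4 and Mbd3 cells at day 0 and 411, 345 and 353 at day 4. It was higher at day 4 in the 3 lines by 1.19-fold, 1.21-fold and 1.18-fold. In the list of 8 neuronal markers, 7 entered in control and 6 were past 2-fold higher at day 4, beside 8.13% of all genes. In each knockdown line 4 entered and 0 were past 2-fold higher, beside 1.70% of all genes for Chd4 and 1.60% for Mbd3. Markers too dim in a line drop out of it, so these counts are not over the same genes. The part of these markers' cells in the values of this region was not tested.

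The Peg3 cluster shifted less. Peg3, a large zinc-finger protein, ranged from 407 to 643, Usp29, a ubiquitin protease gene, from 25.1 to 44.1 and the zinc-finger gene Zim1 from 36.1 to 60.3, each with control at day 4 as the highest array. The RefSeq promoter windows of Peg3 and Usp29, which start from opposite strands, overlap by 263 bases. Of the genes outside these clusters, Nnat, a small membrane protein gene of early neurons, went from 70.2 to 133 in control and stood at 86.3 and 91.5 in the Chd4 and Mbd3 knockdowns at day 4. Its second probe set read 41.7 and 68.7 in control at day 0 and day 4. Gnas, which encodes the stimulatory G protein alpha subunit and is imprinted in some tissues, went from 55.4 to 103 in control and read 61.0 and 67.7 in the knockdowns at day 4. These values are from its 1 own probe set, and 1 more that also carries another symbol was not analysed. Zdbf2, a zinc-finger gene, ranged from 195 to 325, with both Chd4 arrays the lowest. Plagl1, a zinc-finger factor known to act on other imprinted genes, Rasgrf1, a RAS exchange factor, and the proteoglycan gene Dcn were under the floor on all arrays, at 34.0 to 39.3, 27.5 to 28.9 and 22.6 to 29.4.

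The model with residual degrees of freedom treats line and day as additive over the 6 arrays, and with it limma called 0 of the 27 imprinted genes bright enough to be tested, for day or for either knockdown, at a Benjamini-Hochberg adjusted p under 0.05. It also called 0.00% of all 12925 genes. For day, 9 of the 27 had an unadjusted p under 0.05, against 15.2% of all genes, and 23 were higher at day 4. For the Chd4 knockdown this was 2 of 27, against 7.84%, and for the Mbd3 knockdown 1 of 27, against 5%. Among the 27 imprinted genes, the lowest adjusted p for day in limma was that of Cdkn1c, with a mean log2 difference of 1.29 (SE 0.25, adjusted p = 0.19), higher in 3 of 3 lines. Grb10 followed in limma at 1.62 (SE 0.37, adjusted p = 0.22), also higher in 3 of 3. A difference between the days that varies between lines counts as error here, so these values do not show that nothing differed. Fitted without the control line, limma called Grb10 (1.10, SE 0.16, adjusted p = 0.0101) and Cdkn1c (1.00, SE 0.18, adjusted p = 0.0188) between the days, where 5.28% of 12925 genes were called. That fit has 1 residual degree of freedom and takes the Chd4 and Mbd3 lines as replicates of each other, which they are not.

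Genes that set, keep or read imprints formed a separate list of 28, of which 27 had a probe set. At day 4 of control cells, 7 of the 25 that entered were past 2-fold downward and 0 upward, beside the background of 4.70% and 8.13% above. Zfp57 read 542 at day 0 and 209 at day 4, and Dnmt3l, the cofactor of de novo methylation, 559 and 70.9. The log2 differences were -2.37 and -1.51 for the hydroxylase genes Tet1 and Tet2, -2.64 for Zfp42 and -1.22 for Eed of the Polycomb complex PRC2. Dppa3, which protects imprints in the zygote, was at least 2.25-fold lower. Zfp42 and Dppa3 also mark pluripotent cells. In the Chd4 knockdown at day 4, 9 of 25 were past 2-fold above control and 0 below (5.07% and 6.65% of all genes), with log2 differences of 3.02 for Dnmt3l, 2.04 for Zfp42, 1.67 for Tet1, 1.45 for Dnmt3b, 1.36 for Zfp57, 1.09 for Dnmt3a and 1.06 for Tet2. Dppa3 was at least 4.52-fold higher. Ctcfl, a testis paralog of the insulator protein CTCF, is counted on its measured values, but its control value lay under the floor and the bound is 1.88-fold. In the Mbd3 knockdown 4 of 25 were above and 0 below (3.44% and 4.90% of all genes), Dnmt3l at 2.86, Zfp42 at 2.02, Tet1 at 1.43 and the methyltransferase gene Dnmt3b at 1.19. Between the days 2 of 25 were past 2-fold higher in each knockdown line and 0 lower, beside 1.70% and 1.16% of all genes for Chd4 and 1.60% and 1.11% for Mbd3. These were Dnmt3a and Dnmt3b, by 1.30 and 1.31 on the log2 scale for Chd4 and by 1.06 and 1.48 for Mbd3, against 0.05 and -0.48 in control. At day 0, 0 of 25 were past 2-fold with the Chd4 shRNA and 1 with the Mbd3 shRNA, the targeted Mbd3 itself, which was lower (0.314% of all genes). Dnmt1, the maintenance methyltransferase gene, ranged from 808 to 928, and Trim28 was 1.88-fold lower at day 4 in control.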

How the data were processed

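Total RNA of 6 samples, 1 per group, was hybridized to Mouse Gene 2.0 ST arrays. The series design text names GeneSpring GX 12.6.1 as the authors' software, and the submitters' processing notes name RMA with no version. What the authors deposited is linear intensity, ranging from 17.4 to 7979.9 over the arrays. No source used here states a genome build for the probe sets. Differences were taken on log2 of these intensities, which were not scaled again. The platform annotation gave a single symbol for 23521 of the 34351 probe sets, several for 1814 and none for 9016; symbols were updated by gene ID through RefSeq (GRCm38.p6) for 23328 of them, which also gave gene order and promoter windows. A gene entered a comparison of 2 arrays where the brighter reached its array's median. limma 3.58.1 in R 4.3.3 fitted line and day as additive terms to genes whose mean log2 reached the median over probe sets, leaving 2 degrees of freedom for the residual. It was tried on simulated data in which no day difference varied between lines. That trial therefore does not show how the fit treats genes whose day difference varies between lines. As cultures are not described, the p-values of the fit set a mean difference against the departure of these arrays from additivity. They do not set it against the spread between cultures. Python 3.11.15, numpy 2.4.6 and pandas 2.3.3 were used. Named genes were all members with a probe set of their own; those past 2-fold in some comparison got all 6 values. The members and lists were chosen with earlier results of these data known. The effect of the alternatives tried is given in the closing section.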

Additional observations from a re-analysis of the deposited data

Results flagged for a closer look

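In 4 imprinted genes past 2-fold between the days in control, a knockdown line differed in the opposite direction. Of all 1125 genes past 2-fold higher in control, 67.2% were also higher in the Chd4 line and 87.9% in the Mbd3 line. For the 8 imprinted genes among them these shares were near that, at 62.5% and 87.5%. Of all 650 genes past 2-fold lower in control, 36.9% were higher in the Chd4 line and 18.6% in the Mbd3 line. Phlda2 was lower by 2.03 at day 4 in control on the log2 scale (-2.03), and higher by 0.13 in the Chd4 line and by 0.51 in the Mbd3 line. Dlk1 stood at 1.65 in control and at -0.30 in the Chd4 line, and Ndn at 1.73 and -0.30. Mkrn3 stood at 1.05 in control, -0.17 in the Chd4 line and -0.0138 in the Mbd3 line. With 1 array per group these differences between lines were not tested, and those of the knockdown lines, all under 0.6 in size, have no replicate spread to be set against.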

How the results depend on the processing

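The counts of imprinted genes past 2-fold in 9 comparisons, and those called in 4 contrasts of the additive fit, were recomputed with 16 subtracted from each intensity, with values under 41.4 set to it, with all probe sets of a gene averaged, with arrays centred on their medians, without the filter on dim genes and with a trend in the variance prior, as far as each applies. With 16 subtracted, 15 genes in place of 9 were past 2-fold between the days in control (14 higher, 1 lower), Usp29, Peg12, Gnas, Nnat, Magel2 and Ppp1r9a joining. Usp29 lies under the floor at day 0, so its difference is a bound, at least 1.06-fold before the subtraction. The other 5 had log2 differences of 1.01 to 1.27 after it. With 16 subtracted, 1 gene in place of 0 was past 2-fold for Mbd3 against control at day 0, Phlda2, which was lower. Such a constant shrinks folds of dim genes, and no source used here states whether one was added. Without the control line the day contrast called 2 imprinted genes in place of 0; without the Chd4 or the Mbd3 line it called 0. Counts over both directions stayed within 1.5 times of their value under all other settings run, but with 16 subtracted the lower side at day 4 went from 8 to 12 genes for Chd4 and, by more than 1.5 times, from 6 to 10 for Mbd3. The medians at day 4 moved too: from -0.62 to between -0.73 and -0.36 for Chd4 and from -0.37 to between -0.42 and -0.22 for Mbd3. The additive fit compares the days within lines, since line is a term in it. No replicate block could be added because the labels give no replicate numbers and each group holds 1 array. The 5 genes under the floor on all arrays carry no usable difference.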

Other observations

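The Dlk1-Dio3 region codes for a large group of microRNAs on its maternal copy, processed from the same long transcripts as Meg3 and Rian. By RefSeq order 43 microRNA genes with a probe set of their own lie between Dlk1 and Dio3. These probe sets read precursor and host RNA and not the mature microRNA. Of those that entered, 18 of 24 were higher in the Chd4 knockdown than in control at day 0 and 20 of 23 at day 4, and 21 of 26 and 25 of 26 in the Mbd3 knockdown. Shares of all genes higher by any size in these comparisons were 48.7%, 46.1%, 49.7% and 44.1%. The medians were small, at 0.24, 0.27, 0.18 and 0.39 on the log2 scale, the genes share transcripts, and each comparison rests on 1 control array. Between the days in control cells 18 of 22 were lower, with a median of -0.14 and 0 past 2-fold. Small nucleolar RNA genes of the region went both ways at day 4. In the Chd4 and Mbd3 knockdowns against control, AF357355 stood at -1.12 and -0.73 (log2) and AF357426 at -0.12 and 0.46. DQ267102 stood at -0.06 and 0.33, AF357425 at 0.10 and 0.74 and DQ267101 at 0.14 and 0.15. Of the region's microRNA genes, Mir493 was past 2-fold higher in each knockdown at day 4 and Mir1193 in the Mbd3 knockdown at day 0, and no other was in these 4 comparisons. At day 4 this is 1 of 23 for Chd4 and 1 of 26 for Mbd3, near the 5.07% and 3.44% of all genes. At day 0 it is 0 of 24 for Chd4, beside 0.692%, and 1 of 26 for Mbd3, beside 0.366%. Mir493 read 132, 219.7 and 223 in control, Chd4 and Mbd3 cells at day 0 and 94.7, 206 and 291 at day 4, and Mir1193 48.8, 76.9 and 99.99 in control, Chd4 and Mbd3 cells at day 0 and 55.0, 86.9 and 81.9 at day 4. The mature forms of Mir493, shown because it had the widest difference (chosen after its values were seen), lie at chr12:109580243-109580261 and chr12:109580283-109580305 on the plus strand. They are given as RefSeq on GRCm38.p6 lists them, with the seed, bases 2 to 8, in capitals.
mmu-miR-493-5p: uUGUACAUgguaggcuuuc
mmu-miR-493-3p: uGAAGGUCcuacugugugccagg

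Neighbours of the Peg10 cluster were read in the same order along the chromosome, in control cells at day 0 and day 4. Casd1, next to Sgce, went from 186 to 489, with 209 and 238 in the Chd4 and Mbd3 knockdowns at day 4, and Pon2, between Ppp1r9a and Asb4, from 72.9 to 131, with 61.4 and 70.7. Beyond Casd1, Bet1 went from 52.5 to 91.6, with 56.9 and 65.9 in the Chd4 and Mbd3 knockdowns at day 4. Col1a2, also there, went from 52.8 to 83.7, with 56.8 and 52.0. Pon3, between Pon1 and Pon2, went from 34.5, under the floor, to 46.0, with 35.0 and 35.9 in the Chd4 and Mbd3 knockdowns at day 4. Pon1, and Dync1i1 and 1700019G24Rik beyond Pdk4, lay under the floor of 41.4 on all arrays. Pdk4, beyond Asb4, was lower at day 4 in every line, from 88.1 to 46.5 in control, 91.5 to 58.3 in the Chd4 line and 80.7 to 46.3 in the Mbd3 line. Casd1 and Pon2 are named again below among further imprinted genes, from the same values.

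In a list of 40 further imprinted genes, 35 had a probe set and 25 entered in control. There 3 were at least 2-fold higher at day 4, with log2 differences of at least 2.60 for the channel gene Ano1, 1.39 for Casd1 and 1.00 for Dhcr7 of cholesterol synthesis, and 2 lower, Sfmbt2 (-1.52) and the amino acid transporter gene Slc38a4 (-1.02), beside 8.13% and 4.70% over all genes. Against control at day 4 the Chd4 knockdown had, of 25 that entered, 3 higher (5.07% of all genes), Sfmbt2 (2.49), Slc38a4 (1.33) and Ampd3 (1.19), and 4 lower (6.65%), Ano1 (-2.40), Casd1 (-1.22), Pon2 (-1.10) and Dhcr7 (-1.02). The Mbd3 knockdown had, also of 25, 3 higher and 2 lower, beside 3.44% and 4.90%: Sfmbt2 (2.57), Ampd3 (1.07) and Slc38a4 (1.06) higher and Ano1 (-2.08) and Casd1 (-1.04) lower. At day 0, 1 of 22 was past 2-fold higher in each knockdown, Ampd3, and 0 lower, beside 0.692% and 0.366% of all genes higher. Between the days 2 of 23 were higher in the Chd4 line, Sfmbt2 (1.10) and Atp10a (1.07), beside 1.70% of all genes, and 0 of 24 in the Mbd3 line, beside 1.60%.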
